A study of Mus musculus with 4 samples.

Results

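The genes of voltage-gated calcium and sodium channels were measured in sorted pituitary gonadotropes, the cells that secrete luteinizing hormone and follicle-stimulating hormone. The set comprised the protein-coding genes whose symbol in GENCODE M21 (mm10) begins with Cacna1, Cacna2d, Cacnb or Cacng, or is Scn with a number and a or b, and it held 40 of the 54532 genes in the deposited table. Of these 26 were calcium channel genes and 14 sodium channel genes. The 4 libraries were made from poly(A) RNA of male mice aged 10 to 12 weeks, on a strain labelled Mixed. A pair came from mice labelled control and a pair from mice labelled GATA2 cKO, in which the transcription factor gene Gata2 was deleted conditionally, in gonadotropes per the series' title. The promoter that drove the deletion, the alleles that the controls carried and whether animals were pooled are given by none of the sources used here. The design text speaks of whole pituitaries, and the sample labels, which give sorted cells, were followed. Whether both libraries of a group stand for different animals is likewise unknown, and the p-values therefore describe spread between libraries that may be purely technical.

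Voltage-gated channels open when the membrane is depolarised. A large pore subunit with repeated voltage-sensing units forms the channel, encoded by the Cacna1 genes for calcium channels and by the Scn genes ending in a for sodium channels. In endocrine pituitary cells sodium and calcium currents shape action potentials, and the calcium that enters helps to trigger release of hormone granules. Calcium pore subunits fall into Cav1 (L-type), Cav2 (N-, P/Q- and R-type) and Cav3 (low-threshold T-type) classes. Cav1 and Cav2 subunits bind a cytoplasmic beta subunit (Cacnb) and an extracellular alpha2delta subunit (Cacna2d), whereas Cav3 subunits form channels without them. Sodium channel beta subunits (the Scn genes ending in b) are single-span proteins that tune gating and adhesion.

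The docking site for the beta subunit marks which pore genes take part in that partnership, so its coding sequence is shown first. The site is the alpha interaction domain in the loop between the first and second repeats of the pore subunit. The longest coding transcript of every protein-coding gene was translated and searched for the amino acid pattern Q[QL]xExxLxGYxxWIxxxE, with x for any residue. It matched 7 of 21951 transcripts (0.0319%), and these were the 7 Cav1 and Cav2 genes. The pattern was written to describe this site, so its matches do not test which genes bind a beta subunit. None of the 3 Cav3 genes Cacna1g, Cacna1h and Cacna1i held a match, which says only that these letters were not found. The 54 bases (18 codons) of the 6 members that were well measured are given below from GENCODE M21 transcripts, 5′ to 3′ on the coding strand, with capitals over the 5 codons that run from the conserved tyrosine to the tryptophan and isoleucine.
Cacna1c: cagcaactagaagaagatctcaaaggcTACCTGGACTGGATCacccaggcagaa
Cacna1d: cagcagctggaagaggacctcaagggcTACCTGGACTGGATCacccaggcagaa
Cacna1f: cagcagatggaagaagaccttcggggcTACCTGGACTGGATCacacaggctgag
Cacna1a: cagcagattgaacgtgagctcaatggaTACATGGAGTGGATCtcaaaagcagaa
Cacna1b: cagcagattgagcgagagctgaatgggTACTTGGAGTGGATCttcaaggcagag
Cacna1e: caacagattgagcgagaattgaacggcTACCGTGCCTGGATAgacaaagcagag
In Cacna1f on the X chromosome it lies within exon 9 of 48 (chrX:7613861-7613914, plus strand). The stretch of Cacna1d lies at chr14:30142600-30142653 (mm10, minus strand), wholly within exon 9 of 49, and that of Cacna1c at chr6:118734906-118734959 (minus strand), within exon 9 of 48. In Cacna1a (chr8:84536125-84536403, plus strand) it is split between exons 8 and 9 of 47, as it is in Cacna1b (chr2:24719100-24719992, minus strand) and Cacna1e (chr1:154488837-154493353, minus strand). Cacna1c and Cacna1d share 49 of the 54 bases, and Cacna1a and Cacna1b 45, while Cacna1d and Cacna1e share 34.

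Sodium channel pore genes resemble one another closely, which can bear on their counts. Of the 40 members 35 had whole counts in all 4 libraries, and the other 5 were Scn1a, Scn2a, Scn3a, Scn9a and Cacnb3. Of all 50-base words in the annotated transcripts of Scn3a, 6.49% also occur in another member, against 5.62% for Scn2a, 4.04% for Scn9a, 4.03% for Scn1a and 0 for Cacnb3. Reads from shared words cannot be told apart between the genes, so the low levels of Scn1a, Scn2a and Scn9a beside the abundant Scn3a are uncertain.

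Of the 40 members 34 were well measured, meaning 10 or more counts in at least 2 libraries: 23 of the 26 calcium channel genes and 11 of the 14 sodium channel genes. The 6 others were Cacna1s and Cacng1, which encode subunits of the skeletal muscle channel, Cacng3, Scn1a, Scn7a and Scn10a. Scn10a, a sodium channel of sensory neurons, had 0 counts in every library, which allows up to 0.143 to 0.273 CPM (counts scaled to a common library size with TMM factors) when 3 counts are taken as the limit. Cacna1s had 12 counts and Scn7a 14 counts, all in control replicate 2. Cacng1 had 9 counts in that library alone, and Cacng3 had 16 counts in cKO replicate 2 alone. Scn1a had 0, 14.33, 8 and 7.33 counts in control replicates 1 and 2 and cKO replicates 1 and 2, an order kept for all values below. Of the well measured genes 32 entered the test. Cacng6 (0, 12, 35 and 0 counts) and Scn4b (0, 10, 25 and 0 counts) were left out by the filter on low counts.

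Library totals ran from 10646909 to 21135301 estimated counts. Control replicate 1 was the smallest library and stood apart: 10 members were at 0 there against 2 to 6 in the others, and its log2 CPM correlated with those of the other libraries at 0.841 to 0.889 across genes, against 0.902 to 0.928 among the other 3. Gata2 itself stood at 537 and 526 CPM in control libraries, against 221 and 214 in cKO (log2 fold change -1.29, SE 0.14, edgeR adjusted p = 0.0473). Defining gonadotrope transcripts (Lhb, Fshb, Cga, Gnrhr, Nr5a1, Foxp2) were present in every library, and their summed level was 15150 and 13740 CPM in controls and 6740 and 8003 in cKO. Markers of other cell types were present as well. The 5 lactotrope markers, all detected, summed to 361 and 639 CPM in controls and 1371 and 1385 in cKO. The 4 stem cell markers (3 of them with 10 counts in 2 libraries) summed to 59.5 and 68.0 against 90.0 and 112. Among these Sox9 and Sox2 were higher in both cKO libraries, whereas Aldh1a2 was lower (22.4 and 21.9 against 8.30 and 16.6). S100b was seen in control replicate 2 alone. The 6 neuron markers, several of them shared with endocrine cells, summed to 660 and 801 against 844 and 961. Among these Snap25 and Tubb3 were higher in both cKO libraries and Nefl lower (26.9 and 28.4 against 18.6 and 19.7). Rbfox3, Nefm and Map2 overlapped. The 5 corticotrope markers, of which Crh was at 0, summed to 7308 and 10029 CPM in controls and 6171 and 7283 in cKO. Both cKO sums lay below both control sums, though cKO replicate 2 was close to control replicate 1. Pomc, most of the sum, and Avpr1b were lower in both cKO libraries, whereas Tbx19 and Crhr1 overlapped. Somatotrope markers summed to 1143 and 2404 CPM in controls and 2175 and 401 in cKO. Most of this was Gh (1124 and 2375 against 2149 and 385), which overlapped, as did Kcnmb2 and Pappa2. Ghrhr, at low levels, was lower in both cKO libraries (8.64 and 3.82 against 0 and 0.0562). Thyrotrope markers summed to 77.2 and 68.7 against 136 and 92.3. The thyrotrope markers went different ways. Tshb was lower in both cKO libraries (22.3 and 13.7 CPM in controls, 7.33 and 7.08 in cKO), whereas Dio2 and Trhr were higher. Melanotrope markers summed to 248 and 207 CPM in controls and 205 and 259 in cKO. Most of this was Pcsk2, at 222 and 184 against 172 and 228. Erythroid markers summed to 34.6 and 7.18 against 16.1 and 1.85. Endothelial, fibroblast and pericyte, muscle, leukocyte and pituicyte lists were each at 30.5 CPM or less in every library, with the pituicyte marker Nkx2-1 at 0. In sorted bulk samples fewer cells of a type and less RNA per cell cannot be told apart, and the part of these markers in the channel values was not tested.

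Among calcium pore subunits Cacna1d dominated. Cacna1d, an L-type pore that opens at relatively negative voltages (ENSMUSG00000015968.17, chromosome 14, 30039939 to 30491455), had 16.5 and 14.4 CPM per kilobase of annotated exon in controls and 16.3 and 16.0 in cKO. Its lowest library was above the highest of any other calcium pore gene, the 10.6 of Cacna1a in cKO replicate 1. It made up 30.5%, 24.6%, 25.5% and 27.5% of the summed per-kilobase level of the 10 genes. Behind it Cacna1b (N-type), Cacna1a (P/Q-type) and the T-type gene Cacna1i had mean per-kilobase levels of 8.87, 8.83 and 8.23, and their ranges over libraries overlapped. Cacna1a was above Cacna1i in each of the 4 libraries, whereas Cacna1b was above Cacna1a in 2 of them and below it in the other 2. Cacna1c, the L-type pore of heart and smooth muscle, followed at 6.05, with a range that met theirs, then the T-type gene Cacna1h at 4.69 and the L-type gene Cacna1f, known from the retina, at 4.50, again with ranges that overlapped. The T-type gene Cacna1g (0.897) and the R-type gene Cacna1e (0.872) were lower still. The order below the first place depends on the length used: per kilobase of coding sequence Cacna1c (19.2) came second after Cacna1d (30.6), and Cacna1b (12.6) lay behind Cacna1a (14.2). Cacna1d led with every length tried and in every library.

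**Figure D1:**
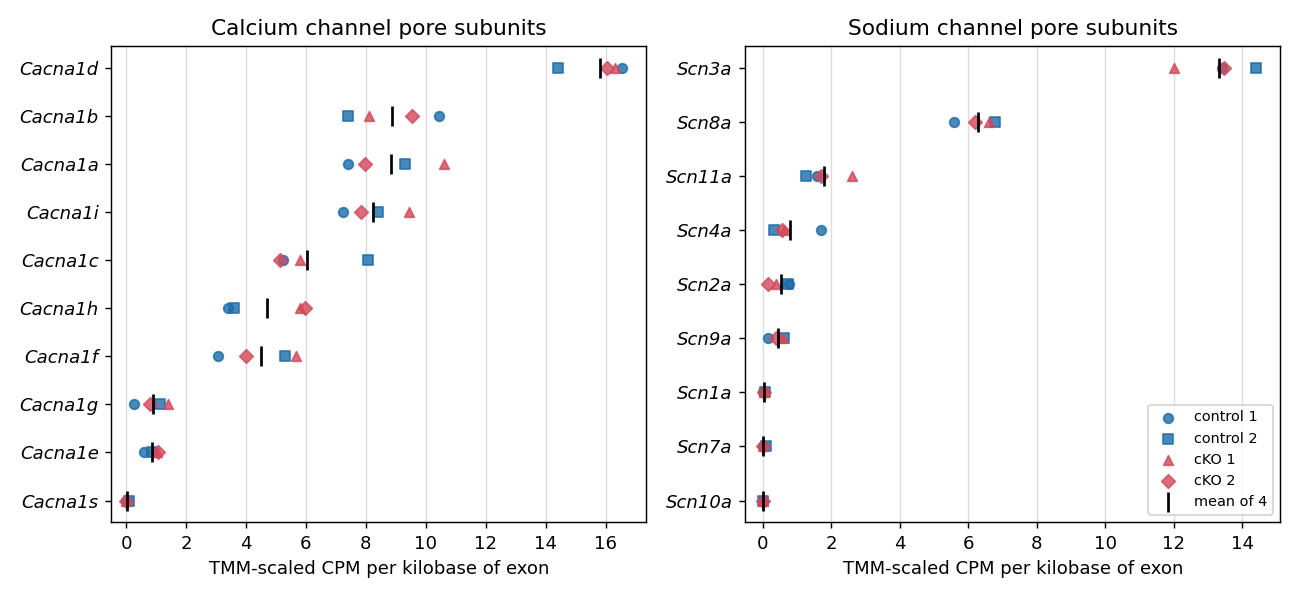
Level of each calcium (left) and sodium (right) channel pore gene in TMM-scaled CPM per kilobase of annotated exon (x axis), with 1 point per library (blue controls, red cKO) and a black bar at the mean of the 4. Cacna1d lies apart from the other calcium pore genes, with its lowest library at 14.4, and Scn3a has the highest level of the 9 sodium pore genes drawn.

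By class, the Cav1 genes held 45.9% and 47.6% of the calcium pore level in controls and 43.3% and 43.1% in cKO. The Cav2 genes held 34.0% and 30.0% in controls and 30.8% and 31.8% in cKO, which overlap. The Cav3 genes held 20.1% and 22.4% in controls and 25.9% and 25.1% in cKO. The cKO libraries thus had a lower Cav1 share and a higher Cav3 share than either control, a description that was not tested. The summed per-kilobase level of the 10 genes was 54.2 and 58.6 in controls and 64.1 and 58.3 in cKO, so the groups overlapped.

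Scn3a led the sodium pore genes. Scn3a, a tetrodotoxin-sensitive channel (ENSMUSG00000057182.14, chromosome 2, 65457118 to 65567627), had 13.4 and 14.4 CPM per kilobase in controls and 12.0 and 13.5 in cKO, or 42.5%, 45.1%, 34.6% and 40.2% of the sodium pore level. Scn8a, which serves axon initial segments in neurons, held 17.7%, 21.3%, 19.1% and 18.5%. The highest library of Scn8a (6.80 CPM per kilobase) lay below the lowest of Scn3a. Per kilobase of coding sequence Scn3a (28.4) again stood above Scn8a (16.7). Scn11a, otherwise a channel of sensory neurons, averaged 1.79 CPM per kilobase over 682 counts in all. Scn4a, the skeletal muscle channel, averaged 0.806, Scn2a 0.524 and Scn9a 0.445, and these 3 overlapped. The muscle markers Acta2, Myh11, Acta1, Myh4 and Ckm summed to 0 and 8.51 CPM in controls and 22.3 and 10.8 in cKO, beside 12.0, 2.39, 4.31 and 3.99 CPM for Scn4a, and their part in its level was not tested.

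**Figure D2:**
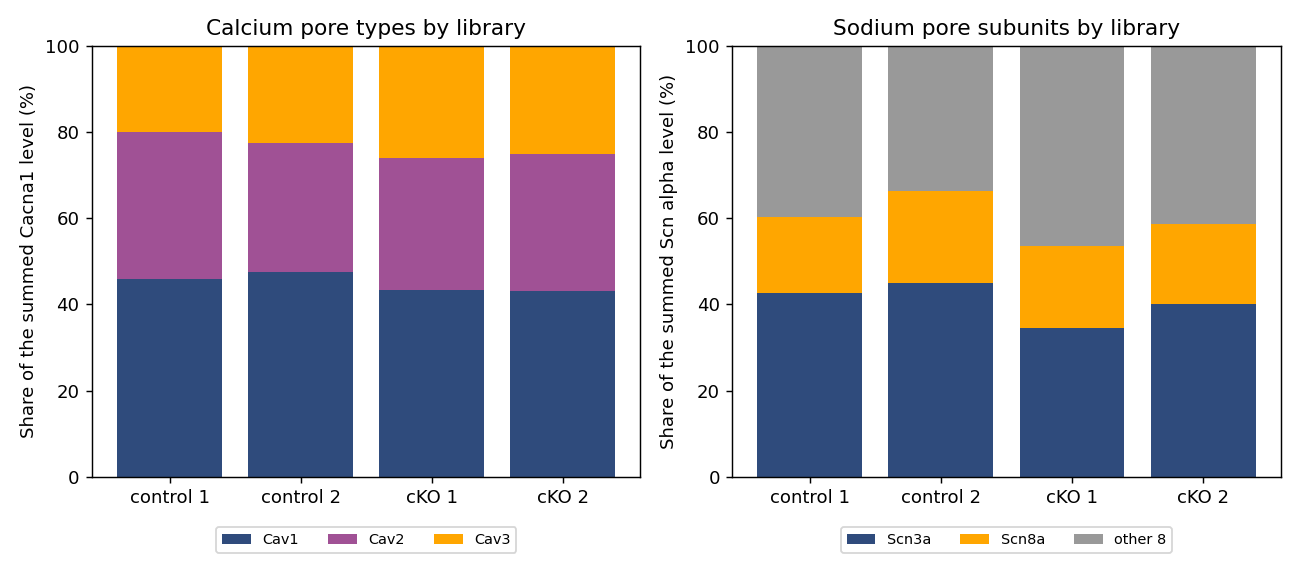
Share (y axis, percent) of the summed per-kilobase level in each library (x axis) held by the Cav1, Cav2 and Cav3 classes (left) and by Scn3a, Scn8a and the other 8 sodium pore genes together (right). The Cav3 share is 20.1% and 22.4% in controls and 25.9% and 25.1% in cKO, and Scn3a holds 34.6% to 45.1% of the sodium pore level.

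Genes of 1 cluster differed widely in level. The 5 sodium pore genes within 65457118 to 66784914 of chromosome 2 (Scn3a, Scn2a, Scn1a, Scn9a and Scn7a) ran from 13.3 CPM per kilobase for Scn3a to 0.0228 for Scn7a. The gamma genes form a pair of clusters of 3. On chromosome 7 (3332955 to 3435667) Cacng7 at 48.3 lies beside Cacng8 at 6.51 and Cacng6 at 0.357. On chromosome 11 (107703218 to 107915055) Cacng4 at 9.05 lies beside Cacng5 at 1.82 and Cacng1 at 0.0861.

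Of the auxiliary subunits, Cacng7 had the highest per-kilobase level of all members, also by coding length. It encodes a gamma subunit of the subfamily that also regulates AMPA-type glutamate receptors (ENSMUSG00000069806.5, chromosome 7, 3332955 to 3368221). Its per-kilobase level was 52.5, 51.5, 47.7 and 41.5, at the 95.7th percentile of the 17349 genes tested, and it made up 65.2% to 72.0% of the gamma level. Among beta subunits Cacnb3 led with 20.6, 21.7, 25.9 and 15.8 CPM per kilobase, ahead of Cacnb2 (mean 8.47) and Cacnb1 (7.30), whose ranges overlapped. Cacnb2 has long annotated exons, and per kilobase of coding sequence Cacnb3 (58.0) and Cacnb2 (57.0) were nearly level. Cacnb4 was low, with 0, 104, 55 and 156 counts. Per kilobase of annotated exon the summed beta level was 0.706 to 0.925 times that of the Cav1 and Cav2 pores, over all 4 libraries. By coding length Cacnb3 and Cacnb2 each lay above the leading calcium pore gene Cacna1d (30.6), so the ratio depends on the length used.

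Cacna2d1, a gabapentin-binding alpha2delta subunit, led its family with 10.8, 16.7, 17.5 and 19.1 CPM per kilobase, or 53.0% to 63.3% of the alpha2delta level. Cacna2d2 averaged 8.57, Cacna2d3 2.53 and Cacna2d4 0.391. Of the sodium channel beta subunits Scn3b averaged 5.42, Scn2b 3.36 and Scn4b 0.105.

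**Figure D3:**
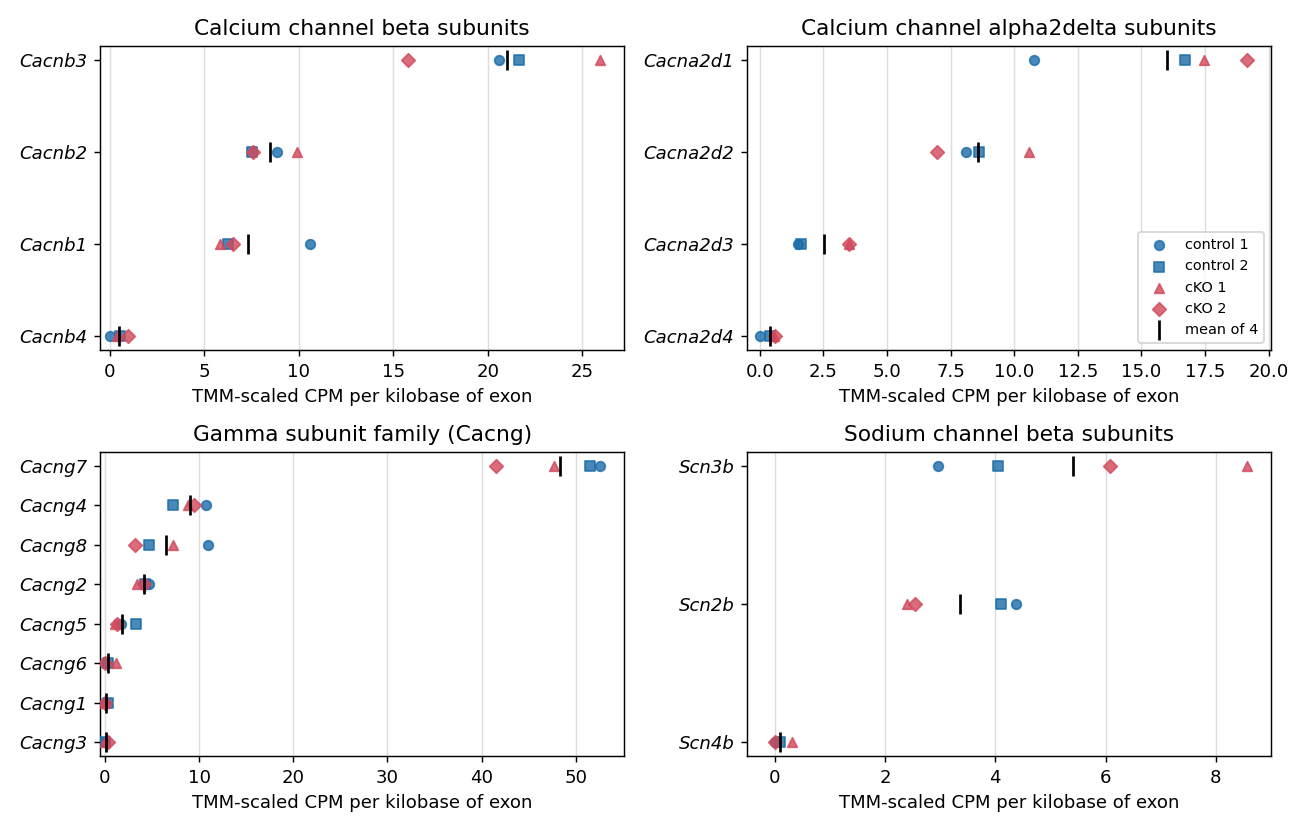
Level of each auxiliary subunit gene in TMM-scaled CPM per kilobase of annotated exon (x axis, scaled to each panel), with 1 point per library (blue controls, red cKO) and a black bar at the mean of the 4. In each calcium channel family 1 gene leads: Cacnb3, Cacna2d1 and Cacng7 (mean 48.3). The sodium channel panel draws 3 beta subunits.

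In cKO against control, none of the 32 tested members passed the threshold of an adjusted p under 0.05 in edgeR's quasi-likelihood test, where 10 of 17349 genes (0.0576%) did (0.0115% higher and 0.0461% lower in cKO). The smallest adjusted p was 0.639. At an unadjusted p under 0.05 there were 4 members, among them Cacna2d3, Cacna1h and Scn3b, against 7.04% of all genes tested. All 4 had higher values in cKO, where 3.15% of all genes met that rule as higher and 3.88% as lower. DESeq2 called the same 4 members and no other, where it called 5.44% of genes, 2.43% as higher. The count at an unadjusted p became 0 without cKO replicate 1, 1 (Scn3b) without cKO replicate 2 and 7 without control replicate 2. Without control replicate 1 it was 3, with Cacna1h and Scn3b no longer among them and Cacna1c, lower in cKO there (-0.57), included. Of the 32 members 19 had a positive and 13 a negative log2 fold change (cKO minus control), and the median was 0.07 beside 0.03 over all genes. The groups did not overlap for 13 members, 8 higher in cKO and 5 lower, where 39.0% of all genes did not overlap (19.7% higher and 19.3% lower), so the share among the members was near that background.

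**Figure D4:**
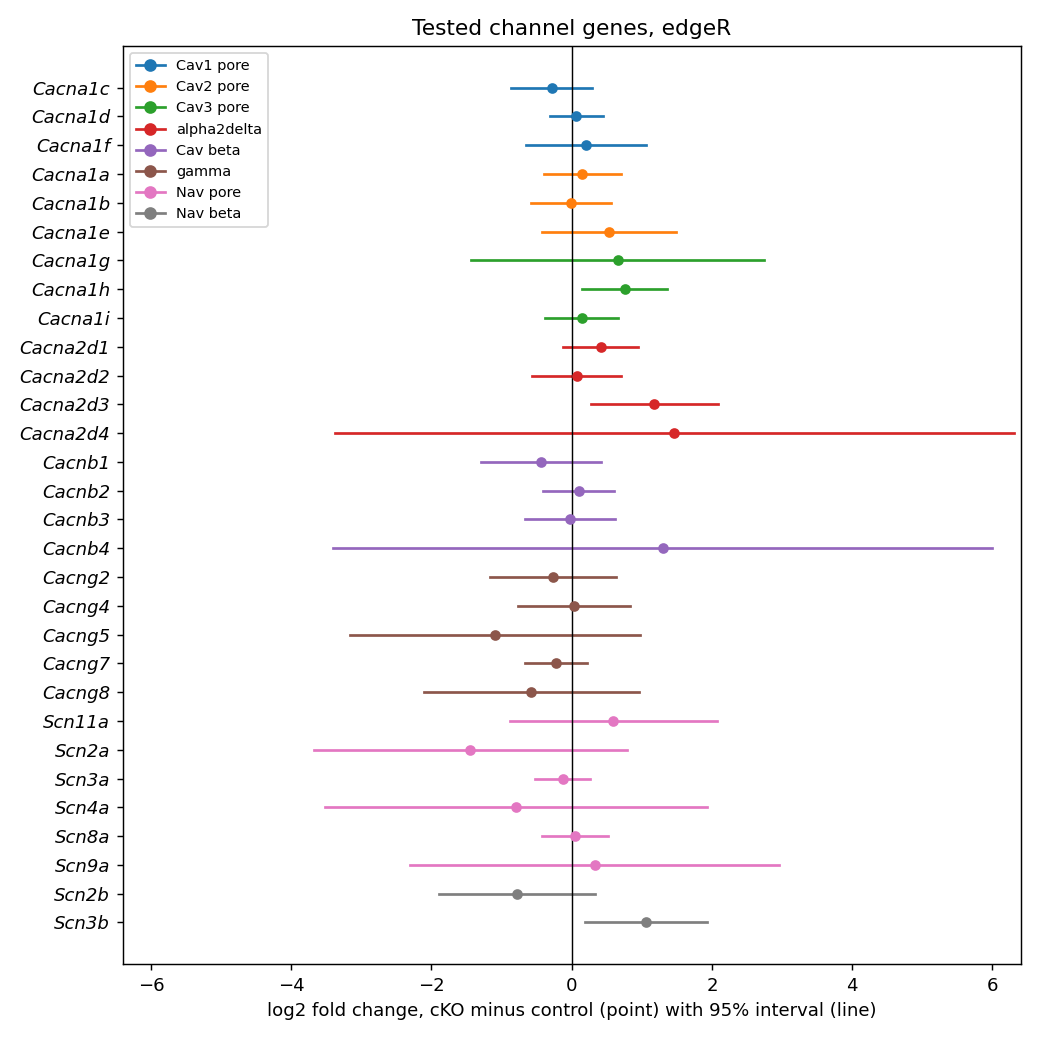
Log2 fold change (x axis, cKO minus control, on TMM-scaled counts) of 30 of the 32 tested members, with 1 row per gene grouped by colour into classes; lines are 95% intervals from edgeR's fit. Intervals exclude 0 for Cacna2d3, Cacna1h and Scn3b before adjustment over 17349 genes, and are widest for Cacna2d4 and Cacnb4.

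Cacna2d3, an alpha2delta subunit, had 13.0 and 14.0 CPM in controls and 30.5 and 30.6 in cKO. Both cKO libraries were about level and above both controls. The fitted log2 fold change was 1.18 (SE 0.39). The adjusted p was 0.639 from edgeR and 0.00238 from DESeq2. The gene (ENSMUSG00000021991.9) spans 28904943 to 29721864 on chromosome 14, less than 1 Mb from Cacna1d. Cacna1h, a T-type pore (ENSMUSG00000024112.16, chromosome 17, 25374285 to 25433783), had 33.1 and 35.0 CPM in controls and 56.5 and 58.4 in cKO. Here too the groups lay apart with little spread in either. Its fitted log2 fold change was 0.75 (SE 0.26, adjusted p = 0.647 by edgeR and 0.00573 by DESeq2).

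Scn3b, a sodium channel beta subunit (ENSMUSG00000049281.16, chromosome 9, 40269217 to 40291618), had 16.2 and 22.1 CPM in controls and 46.8 and 33.2 in cKO. The cKO libraries were higher but differed from each other more than the controls did. The log2 fold change was 1.06 (SE 0.37, adjusted p = 0.649 by edgeR and 0.0299 by DESeq2). Within the sodium channel beta family Scn3b held 9.10% and 10.95% of the per-kilobase level in controls and 28.5% and 16.0% in cKO. The summed lactotrope markers given above were likewise higher in both cKO libraries and the summed gonadotrope markers lower, though Nr5a1, of the gonadotrope list, overlapped (277 and 397 CPM in controls, 275 and 372 in cKO). Their part in these values was not tested.

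**Figure D5:**
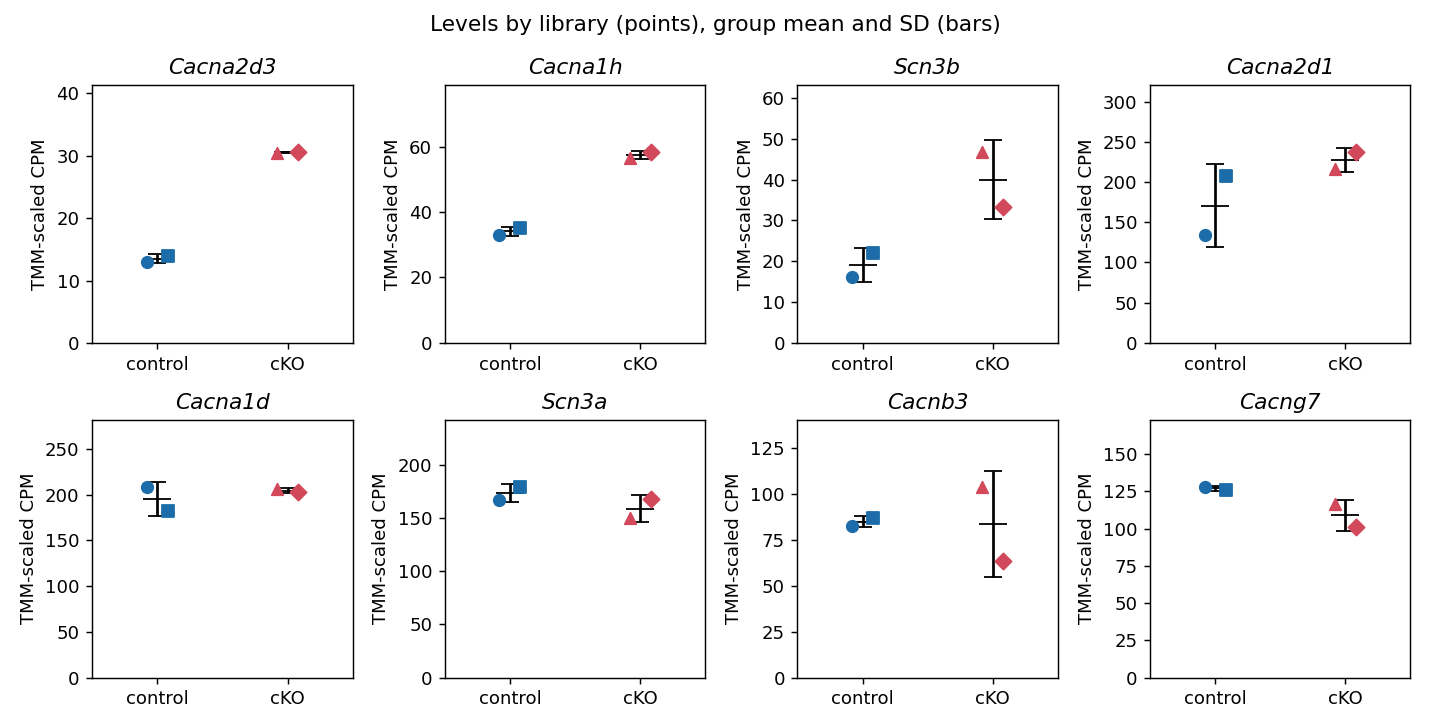
TMM-scaled CPM (y axis, from 0) of 8 members in each library (points; blue controls, red cKO), with the group mean and SD (bars, n = 2). The upper row holds Cacna2d3, Cacna1h, Scn3b and Cacna2d1, with both cKO libraries above both controls; the lower row holds the leading pore genes Cacna1d and Scn3a, with Cacnb3 and Cacng7.

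For the dominant subunits the 95% intervals lay on both sides of no difference. Cacna1d had 209 and 182 CPM in controls and 206 and 202 in cKO, giving a log2 fold change of 0.06 (SE 0.16), and its 95% interval ran from 0.805 to 1.36 times the control level. Scn3a had 167 and 179 CPM in controls and 150 and 168 in cKO, giving -0.13 on the log2 scale (SE 0.17), with an interval from 0.696 to 1.20 times. For Scn8a the interval ran from 0.745 to 1.44 times and for Cacng7, whose cKO libraries (116 and 101 CPM) were both below the controls (128 and 126), from 0.633 to 1.16 times. Cacnb3 had 82.6 and 86.9 CPM in controls and 104 and 63.3 in cKO, so that the cKO libraries lay on either side of the controls (0.631 to 1.54 times). Intervals for these genes leave out changes by a factor of 2 in either direction. They do not show that levels were the same.

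The other calcium pore genes had overlapping groups except Cacna1e, at 14.5 and 21.3 CPM in controls and 25.5 and 26.6 in cKO (log2 fold change 0.54, SE 0.41). Cacna1c had 111, 171, 123 and 108 CPM, with control replicate 2 above the rest (-0.29, SE 0.24), and the value was 0.06 without that library. Cacna1a (0.15, SE 0.23), Cacna1b (-0.01, SE 0.24), Cacna1f (0.20, SE 0.36) and Cacna1i (0.14, SE 0.22) had log2 fold changes smaller than their SE. Cacna1g had 28 counts in control replicate 1 and 143 to 241 in the others, so its value of 0.66 (SE 0.89) rested on that library and was -0.05 without it.

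The 4 alpha2delta genes had positive log2 fold changes, and for 3 of them both cKO libraries were above both controls, as they were for 19.7% of all genes; the family as a whole was not tested. Besides Cacna2d3, Cacna2d1 had 134 and 207 CPM in controls and 217 and 238 in cKO (log2 fold change 0.41, SE 0.23). Control replicate 2 lay close to the cKO libraries, and the value was 0.12 without control replicate 1. Cacna2d4 had 0 and 82 counts in controls and 83 and 99 in cKO (1.46, SE 2.06), and without control replicate 1 its value was 0.47. Cacna2d2 overlapped, at 64.3 and 68.6 CPM against 84.1 and 55.4 (0.07, SE 0.27).

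Of the 5 gamma genes tested 4 had negative log2 fold changes, none with an unadjusted p under 0.05. Both cKO libraries were below both controls for 3 of them, as they were for 19.3% of all genes, and the family was not tested. Apart from Cacng7 these were Cacng2 (25.8 and 23.7 CPM against 18.5 and 22.7) and Cacng5 (6.55 and 12.5 against 4.12 and 4.78, a log2 fold change of -1.10 that was -0.55 without control replicate 2), both of them subunits related to AMPA receptor regulation. Cacng8 was spread within both groups, at 25.6 and 10.9 CPM in controls and 17.0 and 7.53 in cKO (-0.58, SE 0.65), and its value was 0.15 without control replicate 1. Cacng4 had a log2 fold change of 0.03 (SE 0.34). Of the beta subunits Cacnb1 had -0.44 (SE 0.36), with control replicate 1 (47.9 CPM) above the other libraries (26.5 to 29.5), and its value was -0.02 without that library. For Cacnb2 the value was 0.10 (SE 0.22) and for the low Cacnb4 1.30 (SE 1.997), which was 0.30 without control replicate 1.

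Among the remaining sodium channel genes Scn2b had 20.4 and 19.1 CPM in controls and 11.2 and 11.9 in cKO, without overlap (log2 fold change -0.78, SE 0.47, edgeR adjusted p = 0.862). Scn2b encodes a beta subunit that is bound to the pore by a disulfide bond. Scn2a had 110, 198.83, 80 and 36.33 counts, or 10.0 and 9.50 CPM in controls and 5.14 and 2.04 in cKO, also without overlap (-1.44, SE 0.95). Its transcript shares bases with Scn3a, as given above. Scn11a had 9.46 and 7.50 CPM against 15.5 and 10.1 (0.60, SE 0.63). Groups overlapped for Scn8a (0.05, SE 0.20), Scn9a (0.33, SE 1.12) and Scn4a (-0.79, SE 1.16).

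Since the deleted gene encodes a factor that binds GATA letters in DNA, the promoters of members were searched for the letters AGATAA or those of AGATAG, and equally for the letters TGATAA or those of TGATAG, on both strands, in windows of 300 bases from 250 before to 50 after each RefSeq start (GRCm38.p6, the mm10 sequence). The 4 motifs differ in their outer bases, so at most 1 of them can match at a position. Of 40 members 30 had an entry, in 41 windows. Cacna1a, Cacna1g, Cacna1h, Cacna2d4, Cacng1, Cacng4, Scn3a and Scn3b were among those with none. A match was found in 7 of the 41 windows (17.1%) and in 29.8% of all 32851 windows. The 6 members with a match were Cacna1c, Cacna1d, Cacnb1, Cacnb4, Cacng8 and Scn7a. Cacna1c, Cacna1d, Cacnb1 and Cacnb4 also had windows without a match, in Cacna1d the window at its other start (chr14:30353486). Which start is used in these cells was not tested. The first sequence below is the 250 bases before the distal start of Cacna1d, the dominant calcium pore gene (chr14:30491157-30491406, minus strand), with its match TGATAA in capitals, 158 bases before the start. The second is that of Cacna2d3, the member with the smallest p that had an entry (chr14:29721865-29722114, minus strand), with no match.
Cacna1d: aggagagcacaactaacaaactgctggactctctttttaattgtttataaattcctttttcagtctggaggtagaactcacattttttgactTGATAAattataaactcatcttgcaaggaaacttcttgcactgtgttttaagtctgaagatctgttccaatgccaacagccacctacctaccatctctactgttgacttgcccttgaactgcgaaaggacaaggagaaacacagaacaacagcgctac
Cacna2d3: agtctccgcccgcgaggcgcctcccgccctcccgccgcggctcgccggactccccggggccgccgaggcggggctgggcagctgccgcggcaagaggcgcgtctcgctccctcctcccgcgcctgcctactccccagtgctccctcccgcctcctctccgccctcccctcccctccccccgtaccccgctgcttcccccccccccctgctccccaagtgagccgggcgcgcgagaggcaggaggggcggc
A match of letters is a description and not a site of binding, and its absence says nothing of the factor.

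Genes that handle calcium or regulate these channels gave no call either. Of 52 listed genes, among them calcium pumps, release channels and small GTPases that bind beta subunits, 51 were tested (all but Rem1, with 74 counts in control replicate 2 alone), 0 passed over all genes, 29 had positive and 22 negative values, and the median log2 fold change was 0.04. At an unadjusted p under 0.05 there were 4 (3 higher and 1 lower in cKO), near the 7.04% over all genes. Atp2b1, a plasma membrane calcium pump, had 232 and 259 CPM in controls and 361 and 380 in cKO (log2 fold change 0.59, SE 0.15, edgeR adjusted p = 0.492). Itpr1, an inositol trisphosphate receptor of the endoplasmic reticulum, had 510 and 472 against 385 and 332 (-0.46, SE 0.15). Ryr2, a ryanodine receptor, had 67.3 and 71.6 against 91.4 and 124 (0.63, SE 0.23). Rims1, which tethers calcium channels at release sites, had 11.8 and 13.8 against 28.5 and 24.8 (1.06, SE 0.42).

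Whether counting used strand is unknown, and exons of 11 members overlap another gene. For 5 of these the partner had counts. Chdh, opposite Cacna1d, had 73 to 268 counts per library against 2295 to 3808 for Cacna1d. Antisense A730060N03Rik, opposite Cacng2, had 0, 43, 134 and 0 counts against 284 to 496, and A430018G15Rik, opposite Cacnb4, had 0, 26, 0 and 44. The partners of Cacna1a and Cacna1h had at most 64 counts in a library. Each of these partners lies on the opposite strand. Reads from such overlaps cannot be told apart between the genes unless counting used strand.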

How the data were processed

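Per the labels' protocols, RNA from sorted gonadotropes was made into libraries with the Universal plus mRNA-seq kit. The submitters' processing notes name STAR 2.5.1b, featureCounts 1.5.0-p1 and the mm10 build. The annotation release, the use of strand and the handling of multiply matching reads were not given in the sources used here, so none was assumed. The table deposited by the authors holds estimated counts for 54532 genes, not scaled between libraries, of which 4.5% of values were not whole. Totals were 10646909 to 21135301 per library. Identifiers, with the version left off, were matched to GENCODE M21 (54495 matched). Levels used the deposited values, and tests rounded them.

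A filter by filterByExpr (minimum count 10, minimum total 15) left 17349 genes. These were scaled by TMM and entered edgeR 4.0.16 (R 4.3.3), whose quasi-likelihood test of group, two-sided and without covariates, was adjusted by Benjamini-Hochberg over all genes. SE is the log2 fold change divided by the square root of F, and 95% intervals use the t distribution of the fit. Per-kilobase levels divide CPM by the union of annotated exons. The limit of 3 counts for a gene at 0 covers counting error only: without molecular identifiers, reads do not count molecules. Alternatives were DESeq2 1.42.0, limma-voom (limma 3.58.1), edgeR's newer form, other scalings and filters, other lengths, the replicate number as a block and each library left out; counts at an unadjusted p under these were added after seeing the data. The test was tried on simulated data with 200 changed genes, at an adjusted p under 0.05. It recovered 14.9% of changes by a factor of 2, 55.2% by 4 and 63.6% by 8, and 7.29% of calls were false. Most changes by a factor of 2 would thus be missed. The members and lists were chosen with earlier results of these data known. Every member was counted, and values are given for those well measured, apart from some items that are not reported here; of the calcium handling list the 4 with the smallest p were named, since none was called.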

Additional observations from a re-analysis of the deposited data

How the results depend on the processing

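Of the 17349 genes tested 10 were called. DESeq2 called 943, limma-voom 256 and edgeR's newer form 47. Without a filter there were 253, with at least 1 CPM required in 2 libraries 3, and when single libraries were dropped 66 to 681. For these shifts the cause was not tested, apart from the numbers of genes and libraries that differ by construction. The count of members called stayed 0 under each alternative except DESeq2, which gave 4. Leaving out 1 library gave 0 members each time. Whether same-numbered libraries were paired is not given by the labels. Their deviations from group means correlated at -0.01 across genes, which with 2 libraries per group cannot settle it. With the replicate block 7 genes and 0 members were called. Well measured members numbered 30 to 32 under the other rules. Of the 30 members described 16 kept their sign in all 13 other fits, among them Cacna2d3 (1.12 to 1.23 with 1 library left out), Cacna1h (0.71 to 0.80) and Scn3b (0.79 to 1.31). Other members that kept their sign moved more: Cacnb4 0.30 to 9.51, Cacna2d4 0.47 to 9.34, Cacna2d1 0.12 to 0.77, Cacna1e 0.28 to 0.84, Scn11a 0.25 to 0.86, Scn2a -2.27 to -0.93, Cacng5 -1.49 to -0.55 and Cacnb1 -0.77 to -0.02. The median over all genes was 0.25 without control replicate 2, a shift above 0.1, and -0.08 to 0.04 in the other fits.

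None of the values that changed sign was called. Cacna1b, near 0, was 0.069 with limma-voom, 0.031 with edgeR's newer form and 0.0014 with the replicate block. Scn4a was 0.19 with limma-voom. Cacng4 was -0.011 with upper-quartile factors and -0.014 with library size only. With 1 library left out, 14 of these members changed sign, with these ranges of log2 fold change: Cacna1a -0.075 to 0.33, Cacna1b -0.24 to 0.25, Cacna1c -0.57 to 0.062, Cacna1d -0.028 to 0.16, Cacna1f -0.14 to 0.65, Cacna1g -0.054 to 2.13, Cacna2d2 -0.26 to 0.33, Cacnb2 -0.11 to 0.27, Cacnb3 -0.42 to 0.28, Cacng4 -0.23 to 0.34, Cacng8 -1.28 to 0.15, Scn4a -1.53 to 0.79, Scn8a -0.091 to 0.20 and Scn9a -0.35 to 1.67. A group left with 1 library is assumed to vary like the other.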
